A study of Mus musculus with 30 samples.

Results

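The sirtuins are the 7 genes Sirt1 to Sirt7, and they were taken from a table of 24883 gene rows by their symbols, with 1 row for each member. The family was picked because the level of Sirt4 was higher after training than in the home cage, so the Sirt4 values of trained mice against home cage mice chose the family and are given below as a description without a test. The other 6 members were taken by name. All 7 passed the filter on low values, a mean of at least 1 FPKM over all libraries, which 13184 rows of the table met. FPKM, fragments scaled to the length of the transcript and to the mapped fragments of the library, is a level per length, which can be compared between genes. The libraries come from the dorsal hippocampus of 30 male young adult wild-type C57BL/6J mice, with 1 library per mouse and 6 mice in each of 5 conditions. VEH-HC mice stayed in the home cage and were only handled. VEH-T10 mice received 10 min of training in the object location memory task, in which mice explore objects whose places they may later recall, and VEH-T3 mice received 3 min, which the study treats as below the threshold for long-term memory. All 3 of these conditions were infused with the transfection reagent in vivo-jetPEI without DNA. Y397F-T10 mice (10 min) and Y397D-T3 mice (3 min) received the same reagent with a plasmid for HA-tagged mouse CREST, a subunit of the neuronal BAF chromatin remodelling complex, in which a tyrosine of the CBP-binding domain was replaced by phenylalanine (Y397F) or aspartate (Y397D). Phosphorylation of this tyrosine was not detected in the study, which treats the plasmids as point mutants. No plasmid for wild-type CREST was tested. In a plasmid condition against its vehicle, the delivery and expression of added CREST and the point mutation therefore cannot be told apart. The plasmid's promoter, a short CaMK2 promoter, is meant for excitatory neurons, and only transfected cells carry it. Infusion took place 3 days before training, and trained mice were collected 1 h after it. In the study's protocol for the task, mice were habituated to the chamber on the days before training. Against VEH-HC, this habituation and the training session cannot be told apart.

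Sirtuins remove acetyl and longer acyl groups from lysines of other proteins, and each turnover consumes 1 molecule of NAD, so their activity follows the cell's NAD supply. The members are usually grouped by where the protein works. SIRT1, SIRT6 and SIRT7 are mainly nuclear and act on histones and transcription factors, SIRT2 is mainly cytosolic and abundant in myelin, and SIRT3, SIRT4 and SIRT5 are mitochondrial. In the brain SIRT1 is the best known member and has been linked to memory, while SIRT4 is known for restraining glutamate dehydrogenase and pyruvate dehydrogenase.

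The promoters of the family were searched for the short sequences through which neuronal activity is known to reach promoters, in windows from 250 bases before to 50 bases after each RefSeq start (GRCm38.p6, both strands). There were 9 windows for the 7 genes, because Sirt3 and Sirt6 have 2 each. TGACG, the half-site of the cAMP response element that CREB binds, occurred in 3 of the 9 windows and in 20.8% of 32851 promoters of the same length. The 3 stretches of 30 bases that hold it are shown because CREST was studied for its link with the CREB-binding protein and because one of them belongs to Sirt4. Capitals mark the half-site, or its reverse complement, and in Sirt1 also the E-box CACGTG that overlaps it:
Sirt1, chr10:63339058-63339087, minus strand: ggggcgggtCACGTGACGgggtttaaatct
Sirt3, chr7:140882315-140882344, minus strand: cacgggttgcggtCGTCAaggtaaccgcgt
Sirt4, chr5:115484518-115484547, minus strand: tgccccaggCGTCAgcagcatatccggaac
The half-site began 39 bases before the start in Sirt1, 22 bases in Sirt3 and 241 bases in Sirt4. None of the 30 bases of Sirt1 lay in an annotated exon, all 30 of Sirt3 lay in an exon of Psmd13, which is read from the other strand, and all 30 of Sirt4 lay in an exon of a longer Sirt4 transcript. The full element TGACGTCA occurred in 0 of the 9 windows and in 1.79% of all promoters. The E-box occurred in Sirt1 only, at 115 and 43 bases before its start, against 7.15% of promoters, and the EGR sequence GCGNGGGCG also in Sirt1 only, against 5.55%. AP-1 (TGANTCA, 7.81% of promoters), the serum response element by name (1.63%) and the D-box TTANGTAA (2.32%) had no match in the family. The Sirt1 window held 79.0% G and C, higher than 98.6% of promoters, and the Sirt4 window 52.0%, close to the median promoter at 52.7%. These matches describe letters in a window and show no binding.

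In the level over all 30 libraries the family spanned from Sirt2, at a mean of 84.7 FPKM, to Sirt1, at 3.29 FPKM. Sirt3 (35.7 FPKM), Sirt7 (17.4 FPKM), Sirt6 (9.01 FPKM), Sirt4 (6.89 FPKM) and Sirt5 (6.45 FPKM) lay between them. Sirt2 alone made up 51.7% of the summed FPKM of the family. Each member was above the next in 30 of 30 libraries, with the exception of Sirt4, which was above Sirt5 in 20 of 30. The order of this pair differed between conditions. Within VEH-HC the mean was 5.37 ± 0.648 FPKM for Sirt4 and 6.60 ± 0.611 FPKM for Sirt5 (SD, n = 6). In each trained condition Sirt4 had the higher mean, and the difference of Sirt4 from VEH-HC is the one that chose the family. Among the 6 members other than Sirt4, the share of a gene's variance in log2(FPKM + 1) that lay between the 5 conditions was 38.2% for Sirt6 and 27.9% for Sirt7, and between 6.63% and 17.4% for Sirt1, Sirt2, Sirt3 and Sirt5, against a median of 17.6% over the tested rows. In the plot of levels by mouse, Sirt4 is the member whose home cage mice lie lowest against the rest.

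**Figure D1:**
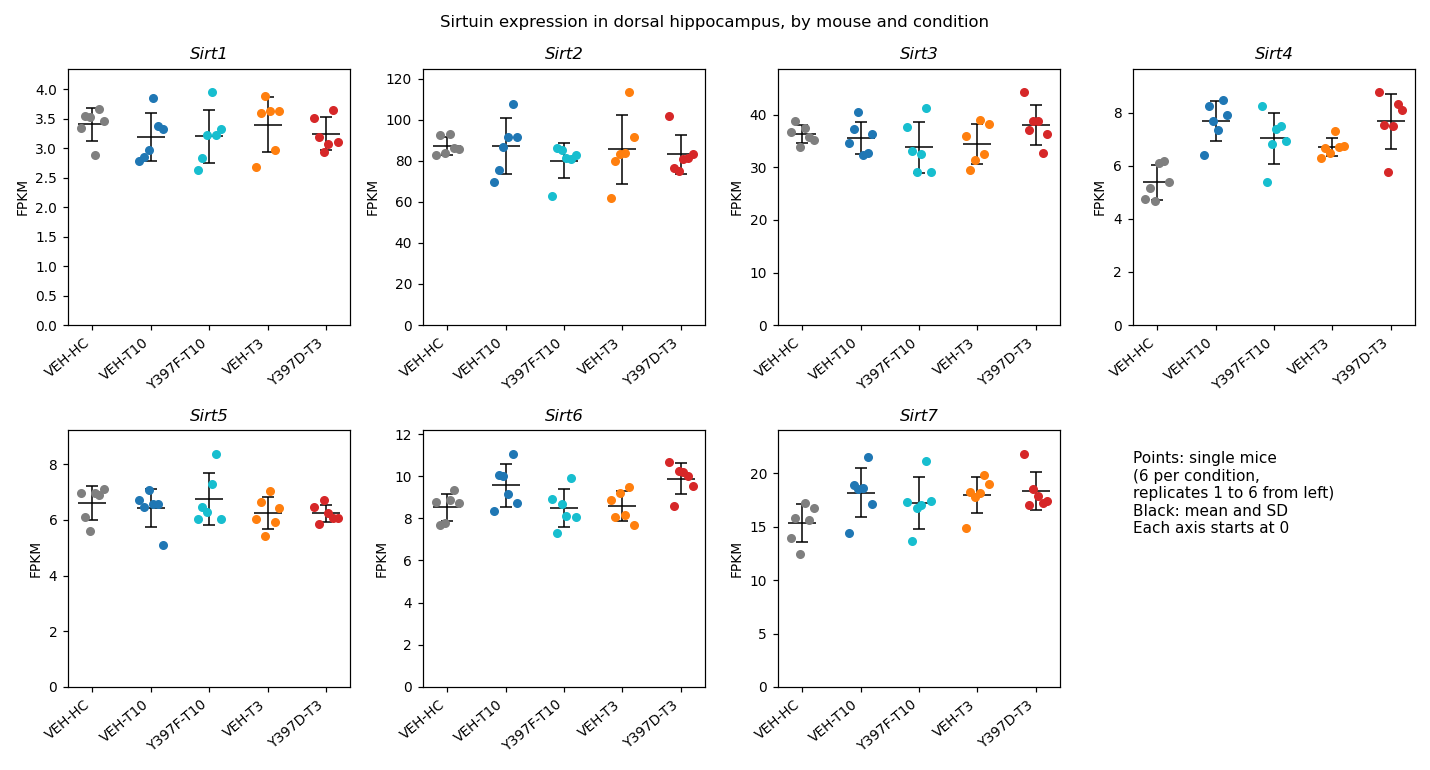
FPKM (vertical axes, each starting at 0) of the 7 sirtuins in each mouse, grouped by condition along the horizontal axes, with 6 points per condition and the mean and SD in black. Sirt4 reaches at most 6.17 FPKM in VEH-HC and at least 6.27 FPKM in every VEH-T10 and VEH-T3 mouse, while the 5 conditions overlap for each of the other 6 members.

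The table holds no read totals. Depth relative to the median library, read off the whole-fragment steps among low values, ranged from 0.811 to 1.24. Absolute depth is unknown, and the spread between mice stands for the precision of each value. Ss18l1, the gene for CREST, had a mean of 12.3 FPKM in VEH-HC. Its mean was 13.5 FPKM in Y397D-T3, against 12.9 FPKM in the matched vehicle VEH-T3. In Y397F-T10 it was 12.6 FPKM, against 12.01 FPKM in the matched vehicle VEH-T10. Each plasmid condition thus had a higher mean than its own vehicle, with overlapping mice, while Y397F-T10 lay below VEH-T3. The mean log2(FPKM + 1) of the 5 neuronal markers lay between 8.09 (VEH-T3) and 8.19 (Y397D-T3) over the conditions. That of the 5 CA1 pyramidal markers lay between 5.34 (VEH-HC) and 5.48 (Y397D-T3). Other tissue varied between libraries: the summed level of 6 choroid plexus markers ran from 919 to 5615 FPKM in VEH-HC and from 10.1 to 12813 FPKM in the trained mice, and that of 4 thalamus markers from 19.4 to 30.4 FPKM in VEH-HC and from 7.59 to 43.4 FPKM in the trained mice. None of these markers was at 0 in all libraries of a condition.

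Sirt4, the mitochondrial member that chose the family, had a lowest, median and highest level of 4.68, 5.26 and 6.17 FPKM in VEH-HC. After training with vehicle these were 6.40, 7.79 and 8.47 FPKM (VEH-T10) and 6.27, 6.68 and 7.29 FPKM (VEH-T3). With a plasmid they were 5.39, 7.14 and 8.26 FPKM (Y397F-T10) and 5.78, 7.81 and 8.78 FPKM (Y397D-T3). Every trained mouse, 24 of 24, exceeded the VEH-HC median and 22 of 24 exceeded every VEH-HC mouse. All mice of VEH-T10 and of VEH-T3 lay above VEH-HC without overlap. The shares of all tested rows that did so were 0.789% and 0.675%, from which nothing is read for Sirt4, since these values chose the family. The exceptions were 1 mouse of Y397F-T10 (5.39 FPKM) and 1 of Y397D-T3 (5.78 FPKM). Mean levels were 7.68 ± 0.741 FPKM in VEH-T10, 6.69 ± 0.342 in VEH-T3, 7.04 ± 0.961 in Y397F-T10 and 7.67 ± 1.05 in Y397D-T3 (SD, n = 6 each). As differences in log2(FPKM + 1) from VEH-HC these were 0.45, 0.28, 0.33 and 0.44, each with a standard error of 0.084. These comparisons share the VEH-HC mice, and leaving out any 1 mouse kept the difference between 0.245 and 0.51 in all 4. No annotated gene overlapped Sirt4 (chromosome 5, 115478010 to 115484725, minus strand) or began within 1 kb of its start, so its reads have no annotated neighbour to be confused with.

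Among the marker lists, those of thalamus and choroid plexus had lower means in every trained condition than in VEH-HC. The mean log2(FPKM + 1) of the 4 thalamus markers was 2.38 in VEH-HC and between 1.94 and 2.15 in the trained conditions, and that of the 6 choroid plexus markers was 5.41 in VEH-HC and between 2.63 and 4.32 in the trained conditions. Across the 30 libraries Sirt4 had a Pearson r of -0.58 with the thalamus markers and -0.50 with the choroid plexus markers, and of -0.07 and -0.26 once each condition's mean was subtracted. For Sirt6 these were -0.25 and -0.43, and 0.03 and -0.31 within conditions. For Sirt7 they were -0.24 and -0.42, and 0.14 and -0.28 within conditions. Over all libraries they were 0.42 and 0.36 for Sirt1, 0.59 and 0.20 for Sirt2, -0.13 and -0.17 for Sirt3 and 0.04 and 0.18 for Sirt5. These are descriptions over libraries that share tissue and dissection. The part of these tissues in the differences of Sirt4, Sirt6 and Sirt7 from VEH-HC was not tested. In bulk RNA fewer cells of a type and less RNA per cell cannot be told apart.

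The other mitochondrial members, Sirt3, the main deacetylase of the organelle, and Sirt5, which removes succinyl and malonyl groups, did not pass the test in any comparison. Sirt3 averaged 36.3 ± 1.75 FPKM in VEH-HC, and its trained means lay between 33.8 (Y397F-T10) and 38.0 FPKM (Y397D-T3). The lowest, median and highest Sirt3 levels were 33.9, 36.2 and 38.9 FPKM in VEH-HC and 32.7, 37.9 and 44.4 FPKM in Y397D-T3. The groups overlapped in every pair of conditions. For all trained mice against VEH-HC the 95% interval of the log2 difference ran from -0.17 to 0.09 for Sirt3 and from -0.16 to 0.08 for Sirt5. Sirt5 averaged 6.60 FPKM in VEH-HC and between 6.24 and 6.74 FPKM in the trained conditions. Sirt3 shares 342 exon bases with Psmd13, a proteasome subunit read from the other strand (47.5 FPKM), and 418 with Ric8a, listed as Ric8 (19.5 FPKM). Whether the counting used strand is not given in the sources used here, so reads in these stretches of Sirt3 cannot be assigned with certainty. Sirt5 (chromosome 13, 43365496 to 43395203) had no such neighbour.

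Sirt7, a nuclear member that resides in the nucleolus and acts on ribosomal RNA transcription, was the other member with higher means in all 4 trained conditions. Its lowest, median and highest levels were 12.5, 15.7 and 17.2 FPKM in VEH-HC. They were 14.4, 18.6 and 21.5 FPKM in VEH-T10 and 14.9, 18.2 and 19.8 FPKM in VEH-T3. They were 13.7, 17.2 and 21.2 FPKM in Y397F-T10 and 17.1, 17.7 and 21.8 FPKM in Y397D-T3. The groups overlapped in every case, with 17 of 24 trained mice above every VEH-HC mouse and 21 of 24 above the median. The log2 difference of all trained mice from VEH-HC was 0.21 (SE 0.071), with an unadjusted p of 0.00555 and an adjusted p of 0.0546 (limma, Benjamini-Hochberg over 13184 rows), which misses the threshold of 0.05. Its log2 difference was 0.23 in VEH-T10 (adjusted p = 0.204, limma), 0.22 in VEH-T3 (0.145), 0.16 in Y397F-T10 (0.388) and 0.25 in Y397D-T3 (0.0897). The call depended on single mice: the adjusted p for all trained mice ranged from 0.028 to 0.183 over the alternatives, and leaving out replicate 3 of VEH-HC, the lowest Sirt7 value, brought the difference to 0.16.

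The 5′ end of Sirt7 (chromosome 11, 120618372 to 120625240, minus strand) shares 124 exon bases with the 3′ end of Mafg, a small MAF transcription factor gene on the same strand, and reads there cannot be divided between them by strand. Mafg averaged 13.4 ± 1.71 FPKM in VEH-HC (SD, n = 6). Its trained means were 16.3 ± 1.07 in VEH-T10, 14.3 ± 1.63 in VEH-T3, 16.5 ± 0.690 in Y397F-T10 and 16.0 ± 1.64 in Y397D-T3 (n = 6 each). For all trained mice against VEH-HC Mafg rose by 0.23 on the log2 scale (SE 0.059, adjusted p = 0.0162, limma), and it missed the threshold without replicate 4 of VEH-HC (adjusted p = 0.0808). Within conditions the r of Sirt7 with Mafg was -0.21 over 30 libraries, a value that leaves out the differences between conditions. Against VEH-HC Mafg and Sirt7 differed by 0.28 and 0.23 in VEH-T10 and by 0.10 and 0.22 in VEH-T3. With a plasmid they differed by 0.29 and 0.16 in Y397F-T10 and by 0.25 and 0.25 in Y397D-T3. All annotated Sirt7 transcripts together cover 5148 exon bases. The part of the overlap in the Sirt7 values was not tested.

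Sirt6, the nuclear member that acts on histone H3 acetylation and DNA repair, had its highest means in VEH-T10 and Y397D-T3. Its mean was 8.52 ± 0.653 FPKM in VEH-HC. The trained means were 9.56 ± 1.01 in VEH-T10, 8.58 ± 0.714 in VEH-T3, 8.49 ± 0.897 in Y397F-T10 and 9.88 ± 0.741 in Y397D-T3 (SD, n = 6 each). The lowest, median and highest levels were 7.69, 8.75 and 9.32 FPKM in VEH-HC, 8.33, 9.59 and 11.1 FPKM in VEH-T10 and 8.57, 10.1 and 10.7 FPKM in Y397D-T3. Of the Y397D-T3 mice, 5 of 6 were above every VEH-HC mouse, and of the VEH-T10 mice 3 of 6. Against VEH-HC the log2 difference was 0.19 (SE 0.068) in Y397D-T3, with an adjusted p of 0.0792, and 0.15 in VEH-T10, with an adjusted p of 0.305 (limma). In Y397F-T10 and VEH-T3 it was -0.01 and 0.01. The Y397D-T3 value passed the threshold under some alternatives (adjusted p from 0.0366 to 0.165). Ankrd24 begins 743 bases from the start of Sirt6 on the other strand without sharing an exon base, and its level (5.15 FPKM) had an r of 0.07 with Sirt6 within conditions.

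Sirt1, the nuclear deacetylase best known from memory studies, was the lowest member and varied little between conditions. Its means lay between 3.19 FPKM (VEH-T10) and 3.40 FPKM (VEH-HC), and its log2 differences from VEH-HC between -0.07 and -0.01. For all trained mice the 95% interval of the difference ran from -0.17 to 0.07. The lowest, median and highest Sirt1 levels were 2.88, 3.49 and 3.66 FPKM in VEH-HC and 2.64 to 3.95 FPKM was the full range over all mice. An antisense gene, Gm16145, overlaps Sirt1 (65 exon bases) and was not analysed here.

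Sirt2, the cytosolic tubulin deacetylase of myelin-forming cells, was the most abundant member and differed more between mice than between conditions. Its mean was 87.3 ± 4.41 FPKM in VEH-HC. The trained means were 87.2 ± 13.5 in VEH-T10, 85.8 ± 16.8 in VEH-T3, 80.0 ± 8.56 in Y397F-T10 and 83.2 ± 9.67 in Y397D-T3 (SD, n = 6 each). The lowest, median and highest levels were 82.7, 85.9 and 92.9 FPKM in VEH-HC and 62.1, 83.6 and 114 FPKM in VEH-T3, so home cage mice were close together and trained mice lay on both sides of them. Against VEH-HC the smallest adjusted p over the 4 trained conditions was 0.571 (limma, Y397F-T10, log2 difference -0.13). Sirt2 varied with the oligodendrocyte markers of the library. Over the 30 libraries it correlated with the mean log2 level of the 6 oligodendrocyte markers (Mbp, Mog, Mag, Mobp, Cnp and Cldn11) with a Pearson r of 0.92 and a Spearman rho of 0.79, and with an r of 0.95 and a rho of 0.86 once condition means were subtracted. Each had a permutation p of 1e-05, the smallest that 100000 permutations can give, and an adjusted p of 0.00014 over 14 relations. Without the 2 libraries farthest from the median on the marker axis r was 0.87, and 0.92 within conditions. In the single conditions r was 0.77 in VEH-HC and, after training, 0.97 in VEH-T10, 0.98 in VEH-T3, 0.98 in Y397F-T10 and 0.79 in Y397D-T3 (n = 6 each, without a test). Among all tested rows Sirt2 ranked 21 of 13184 by this r within conditions, where the median row had 0.17. Other marker lists moved with it too: within conditions the r of Sirt2 was 0.75 with microglia, 0.72 with astrocyte, 0.72 with thalamus, 0.55 with endothelium and -0.64 with neuron markers, and whether these relations are separate from that with oligodendrocytes was not tested. The summed level of the 6 markers ran from 1558 to 1784 FPKM in VEH-HC and from 942 to 3301 FPKM in trained mice, and none was at 0. Nfkbib shares 42 exon bases with Sirt2 from the other strand (16.8 FPKM) and had an r of 0.62 with it within conditions.

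**Figure D2:**
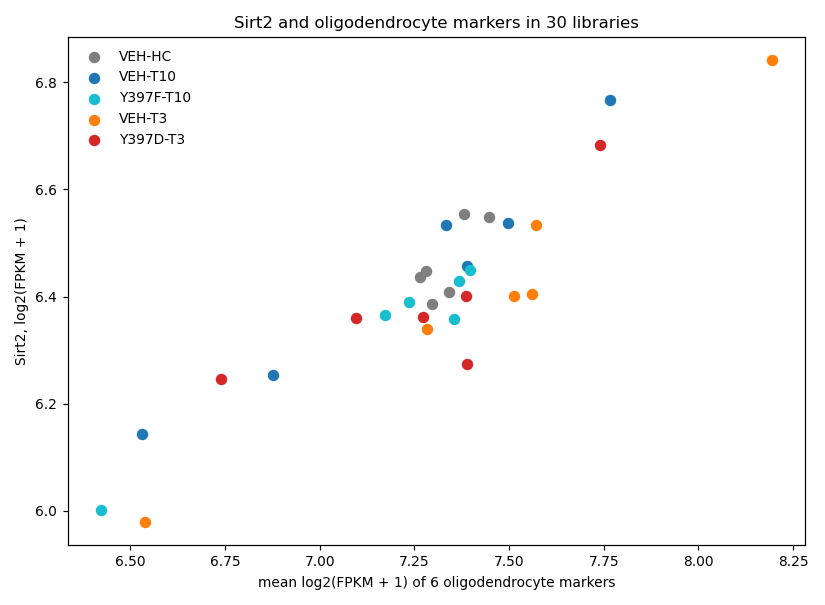
Sirt2 as log2(FPKM + 1) (vertical axis) against the mean log2(FPKM + 1) of 6 oligodendrocyte markers (horizontal axis), 1 point per library and 1 colour per condition, with both axes cut to the range of the data. The 6 VEH-HC libraries cluster between 7.26 and 7.45 on the horizontal axis, and libraries of every trained condition extend along the same band (r = 0.92 over 30 libraries).

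Over all 30 libraries r was lower for the other members. The r with the oligodendrocyte markers over all libraries was 0.50 for Sirt1 (adjusted permutation p = 0.0203 over 14 relations, rho 0.37 with 0.130), 0.38 for Sirt7 (0.113), and between -0.08 and 0.07 for Sirt3, Sirt4, Sirt5 and Sirt6. For Sirt1 the relation within conditions was 0.47 with an adjusted permutation p of 0.0934, and for Sirt7 it was 0.47 with 0.0680. In single conditions of 6 libraries r ran from -0.09 (Y397F-T10) to 0.94 (VEH-T3) for Sirt7 and from -0.67 (Y397F-T10) to 0.90 (Y397D-T3) for Sirt4, the last above the 0.79 of Sirt2 in the same condition. The median level of a library correlated with Sirt2 (r = 0.69, adjusted permutation p = 0.00028) and Sirt1 (r = 0.45, adjusted permutation p = 0.0409), and library medians lay between 9.08 and 10.3 FPKM. For Sirt1 the rho was 0.44 (adjusted permutation p = 0.0666) and r within conditions was 0.43 (adjusted permutation p = 0.124), neither under 0.05. Within conditions r was 0.71 for Sirt2 (adjusted permutation p = 0.00133).

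Counted over the 6 members other than Sirt4, 0 passed an adjusted p under 0.05 against VEH-HC in each trained condition (limma). Of all tested rows 0.819% (VEH-T10), 5.17% (VEH-T3), 1.13% (Y397F-T10) and 7.07% (Y397D-T3) passed. At an unadjusted p under 0.05 2 of 6 passed in VEH-T10 (Sirt6 and Sirt7) against 14.9% of all rows, and 1 of 6 in VEH-T3 (Sirt7) against 21.6%. In Y397F-T10 it was 0 of 6 against 16.9%, and in Y397D-T3 2 of 6 (Sirt6 and Sirt7) against 24.9%. For all trained mice together the count was 0 of 6 adjusted (9.66% of all rows) and 1 of 6 unadjusted (Sirt7; 25.3%). The median log2 difference of the 6 members lay between -0.04 (Y397F-T10) and 0.00 (Y397D-T3), beside medians between -0.04 and -0.03 over all tested rows. The 4 comparisons share the 6 VEH-HC mice and are not independent of each other.

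**Figure D3:**
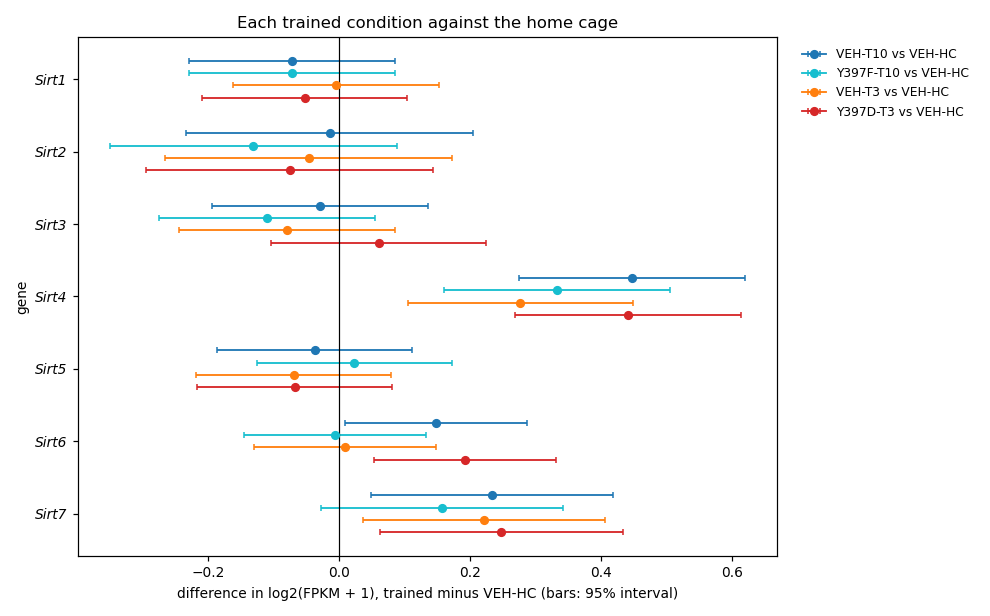
Difference in log2(FPKM + 1) of each sirtuin between each trained condition and VEH-HC (horizontal axis, 0 marked by a line), with the 95% interval from the model over 30 libraries as bars and the genes along the vertical axis. Sirt4 lies between 0.28 and 0.45 in all 4 conditions and Sirt7 between 0.16 and 0.25, while Sirt1, Sirt2, Sirt3 and Sirt5 lie between -0.13 and 0.06. The Sirt4 differences chose the family, so the Sirt4 bars are a description and not a test.

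Among trained mice, where the home cage values do not enter, all 7 members were compared. The trained values of Sirt4 were part of what chose the family, so its tests among trained mice are not independent of that choice. For 10 min against 3 min of training with vehicle, 0 of 7 passed (0.0455% of all rows), and 0 of 7 had an unadjusted p under 0.05 (8.15% of all rows; limma). Sirt4 was higher after 10 min by 0.17 on the log2 scale (SE 0.084, 95% interval 0.00 to 0.34, adjusted p = 0.616, limma), with 5 of 6 VEH-T10 mice above every VEH-T3 mouse. Sirt6 showed a difference of 0.14 (adjusted p = 0.616, limma).

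For the Y397F plasmid, Y397F-T10 against VEH-T10, 0 of 7 members passed, as did 0 of all rows (0%), and 1 of 7 had an unadjusted p under 0.05 (3.78% of all rows; limma). That member was Sirt6, at 8.49 FPKM against 9.56 FPKM, a log2 difference of -0.15 (SE 0.068, unadjusted p = 0.0313, adjusted p = 1.00, limma), with 3 of 6 mice below every VEH-T10 mouse. Sirt4 differed by -0.11 (95% interval -0.29 to 0.06), and by -0.05 without replicate 2 of Y397F-T10.

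For the Y397D plasmid, Y397D-T3 against VEH-T3, 0 of 7 passed (0.00758% of all rows) and 1 of 7 had an unadjusted p under 0.05 (7.87% of all rows; limma). That member was again Sirt6, at 9.88 FPKM against 8.58 FPKM, a log2 difference of 0.18 (SE 0.068, unadjusted p = 0.0114, adjusted p = 0.548, limma), with 5 of 6 mice above every VEH-T3 mouse. Sirt4 differed by 0.16 (SE 0.084, adjusted p = 0.644, limma), with 5 of 6 mice above every VEH-T3 mouse and the remaining mouse below all of them.

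The difference between the 2 plasmid contrasts was tested as an interaction, the Y397D effect at 3 min minus the Y397F effect at 10 min. It was 0.34 for Sirt6 (SE 0.096, unadjusted p = 0.00151, adjusted p = 0.323) and 0.28 for Sirt4 (SE 0.12, unadjusted p = 0.0267, adjusted p = 0.474), and neither passed (limma). Over the 7 members 0 passed (0.0303% of all rows) and 2 had an unadjusted p under 0.05 (9.08% of all rows). These 2 were Sirt6 and Sirt4. The trained values of Sirt4 were part of what chose the family, so nothing is read from its test or its place in this count. Training time and plasmid differ together between the 2 contrasts, so they cannot be told apart here. The mean Sirt6 level thus lay at 9.56 and 9.88 FPKM in VEH-T10 and Y397D-T3 and at 8.49 and 8.58 FPKM in Y397F-T10 and VEH-T3, with overlapping mice throughout.

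**Figure D4:**
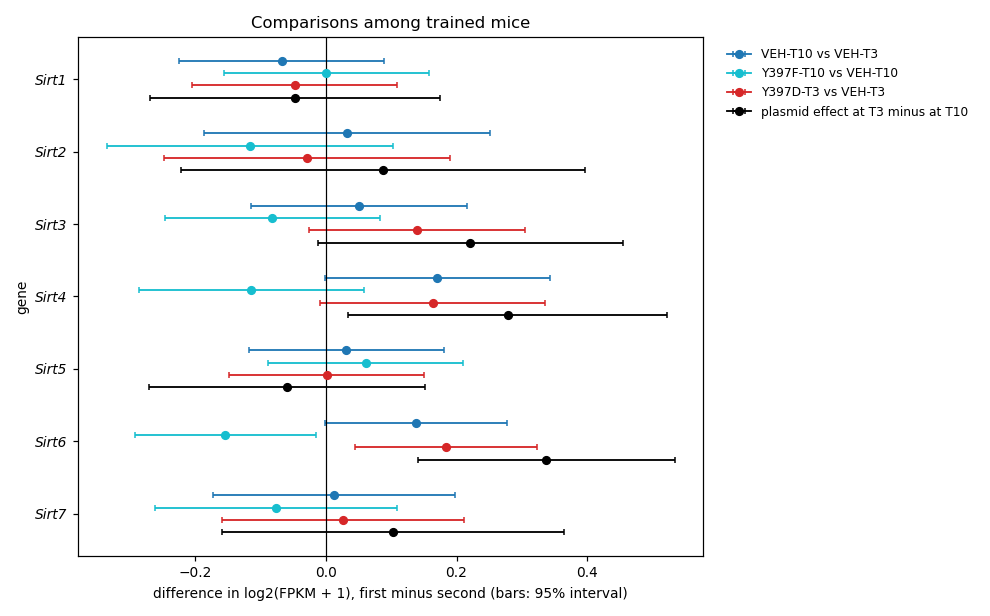
Difference in log2(FPKM + 1) of each sirtuin for 10 min against 3 min of training, each plasmid against its vehicle and the difference between the 2 plasmid effects (horizontal axis, 95% intervals as bars, 0 marked by a line), with the genes along the vertical axis. Sirt6 has intervals on opposite sides of 0 for the 2 plasmids (-0.29 to -0.01 for Y397F, 0.04 to 0.32 for Y397D), and no adjusted p is under 0.05.

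Some pairs of members varied together from mouse to mouse and others did not. With condition means subtracted, the highest r among the 21 pairs were 0.65 for Sirt6 with Sirt7, 0.62 for Sirt4 with Sirt7, 0.54 for Sirt2 with Sirt7 and 0.45 for Sirt4 with Sirt6, and the lowest was -0.29 for Sirt1 with Sirt3, while Sirt2 with Sirt5 (0.01), Sirt1 with Sirt5 (0.04) and Sirt4 with Sirt5 (0.11) were near 0 (30 libraries, as a description). All values of a pair come from the same library, whose makeup they share. The genes whose levels were most like each member, by r within conditions over the 30 libraries, were Rsrp1 (0.74), Tbce (0.73) and Zfp932 (0.72) for Sirt4, and Scg5 (0.89) and Nipsnap1 (0.85) for Sirt3. For Sirt2 they were Cnp (0.95), Cldn11 (0.93) and Mog (0.93), all 3 of them members of the oligodendrocyte list. For Sirt7 they were Zfp90 (0.83), Meis3 (0.76) and Rgs19 (0.75), for Sirt6 Atad3a (0.74), Ccdc58 (0.71) and Sirt7 (0.65), for Sirt1 Rimbp2 (0.79), Secisbp2l (0.72) and Zc3h14 (0.72), and for Sirt5 5430405H02Rik (0.73), Eif2d (0.72) and Dcun1d5 (0.72).

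**Figure D5:**
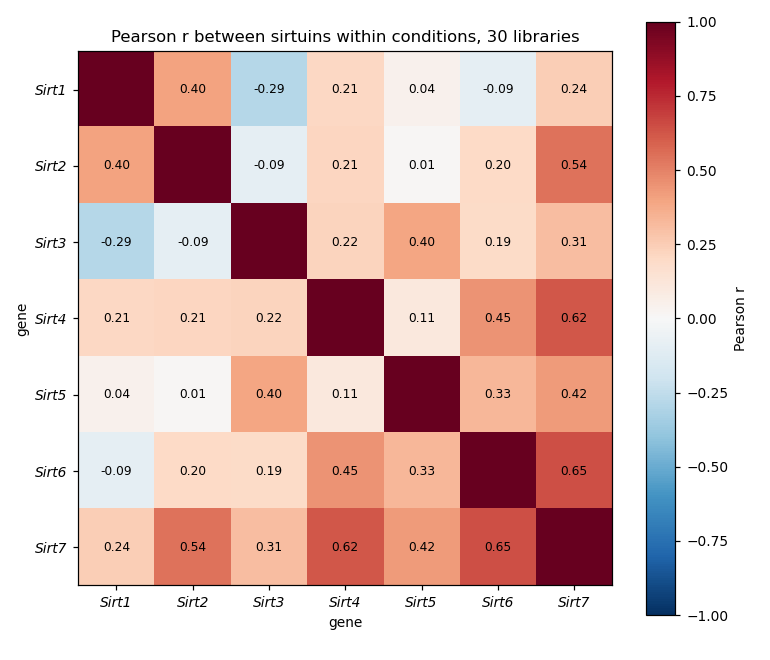
Pearson r of log2(FPKM + 1) between each pair of sirtuins over 30 libraries, with each condition's mean subtracted (both axes list the genes, the colour runs from -1 to 1). The pairs of Sirt4, Sirt6 and Sirt7 have values of 0.45, 0.62 and 0.65, and Sirt1 with Sirt3 has -0.29.

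The genes around the sirtuins were read from 8 lists with 58 genes, all of them in the table and 51 of them tested. NAD synthesis (13 genes, 9 tested) had 1 member higher and 0 lower, where 3.91% of all tested rows were higher in Y397D-T3 and 3.86% over all trained mice: Slc25a51, the carrier that brings NAD into mitochondria. It rose in Y397D-T3 from 24.9 ± 0.809 to 27.5 ± 0.925 FPKM, by 0.14 on the log2 scale (SE 0.035, adjusted p = 0.0181, limma), with 6 of 6 mice higher than the VEH-HC median. Over all trained mice it rose by 0.09 (adjusted p = 0.0341, limma). The first call was lost without replicate 5 of Y397D-T3 (adjusted p = 0.0511) and the second without any 1 of replicates 2 to 5 of VEH-HC (up to 0.102). The other NAD consumers (5 tested), the regulators of SIRT1 (5 tested), the SIRT1 targets (9 tested) and the SIRT7 partners in ribosomal RNA transcription (4 tested) had 0 members past the threshold in every comparison (limma). At an unadjusted p under 0.05 the SIRT1 targets had 5 of 9 members in Y397D-T3, against 24.9% of all rows, 4 of 9 over all trained mice, against 25.3%, and at most 2 of 9 in the other comparisons, against 3.78% to 21.6%. The other NAD consumers and the regulators of SIRT1 had at most 1 of 5 each and the SIRT7 partners 0 of 4 in any of the 9 comparisons, against 3.78% to 25.3% of all rows.

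The lists of mitochondrial targets held members that fell, in comparisons where 2.94% (VEH-T3), 3.16% (Y397D-T3) and 5.79% (all trained mice) of all tested rows were lower. Of the SIRT3 targets (8 tested), Acadl, a dehydrogenase of fatty acid oxidation, fell in Y397D-T3 from 22.0 ± 0.486 to 16.6 ± 1.57 FPKM, a log2 difference of -0.39 (SE 0.099, adjusted p = 0.0172, limma), with 6 of 6 mice below the VEH-HC median. Sdha, a subunit of succinate dehydrogenase, fell over all trained mice, with a log2 difference of -0.10 (adjusted p = 0.0367, limma). Of the SIRT4 targets and partners (9 tested), Pdha1, a subunit of pyruvate dehydrogenase, fell in Y397D-T3 from 85.7 ± 2.16 to 75.1 ± 5.94 FPKM, a log2 difference of -0.19 (SE 0.057, adjusted p = 0.0408, limma), and over all trained mice, with -0.15 (adjusted p = 0.0332). Of the SIRT5 targets (4 genes, 2 tested), Vdac2, a channel of the outer mitochondrial membrane, fell in VEH-T3 (-0.14, adjusted p = 0.0438), in Y397D-T3 (-0.14, adjusted p = 0.0396) and over all trained mice (-0.13, adjusted p = 0.0122, limma). With library medians subtracted Acadl kept its call (adjusted p = 0.00854), while Sdha (0.320), Pdha1 (0.167 and 0.172) and Vdac2 (between 0.0821 and 0.172) lost theirs and kept their sign (limma). With only the libraries compared Vdac2 missed the threshold in VEH-T3 (adjusted p = 0.123) and Y397D-T3 (0.0692, limma). Acadl (0.002) and Pdha1 (0.0208) kept their calls in Y397D-T3 there. Without the filter the calls of Vdac2 in VEH-T3 and of Pdha1 in Y397D-T3 were lost. Acadl was also the call that no left-out library ended (adjusted p up to 0.0458), whereas the others missed the threshold without single libraries, among them replicate 4 of VEH-HC in each case, the adjusted p reaching 0.104 for Sdha, 0.0954 for Pdha1 and 0.135 for Vdac2. In neither VEH-T10 nor Y397F-T10 did a member of any list pass. For all trained mice the median log2 difference was -0.11 for the SIRT3 targets, -0.13 for the SIRT4 targets and -0.12 for the SIRT5 targets, beside -0.04 over all tested rows. In the same comparisons the 6 choroid plexus markers had a mean log2 level of 5.41 in VEH-HC, 4.32 in VEH-T3 and 2.63 in Y397D-T3, and that of the 4 thalamus markers was 2.38, 2.15 and 1.94. Their part in the values of the list genes was not tested. These are RNA levels, and the activity of the enzymes was not measured.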

How the data were processed

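The deposited table holds FPKM per gene symbol and library, which the authors computed with Cufflinks 2.2.1 from reads aligned to mm10 with TopHat2 2.1.1, and the values were used as deposited. The annotation, the strand setting and which libraries ran on which of the study's sequencing instruments are not given in the sources used here. All 30 value columns were used, and conditions and mice follow their labels. FPKM keeps no read totals, so relative depth was estimated from the steps of single fragments in 2642 low rows (median residual 0.0003 log2).

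Rows with a mean of at least 1 FPKM (13184 of 24883) were tested as log2(FPKM + 1) with limma 3.58.1 in R 4.3.3, with 1 coefficient per condition over all 30 libraries and empirical Bayes moderation with a trend. P-values were adjusted over all tested rows of a comparison by the Benjamini-Hochberg method, with a threshold of 0.05. The pseudocount of 1 makes fold changes of low genes look smaller. The model was tested on simulated data with known changes. Relations across libraries used 100000 two-sided permutations. Other steps used Python 3.11.15, numpy 2.4.6, pandas 2.3.3, scipy 1.17.1 and matplotlib 3.10.9.

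The members, gene lists and tests were chosen with earlier results of these data known. Genes named are the 7 members, the 3 rows most like each, annotated genes (GENCODE, GRCm38) overlapping a member or starting within 1 kb of its start, Ss18l1, and the members of the pathway lists with an adjusted p under 0.05, at most 5 per list and comparison. The marker genes in the lists were fixed likewise. One gene of the marker lists and one row most like a member are not reported here, and the first stayed out of the marker means. Alternatives were a pseudocount of 0.1, no filter (18287 rows above 0 in at least 6 libraries), subtraction of each library's median, only the libraries compared, the replicate number as a block, unadjusted p-values and leaving out each library. The 6 libraries of a condition come from 6 mice.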

Additional observations from a re-analysis of the deposited data

Results flagged for a closer look

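Of the 35 sets of 6 mice, 1 for each member and condition, 4 held a mouse whose gap to the nearest other mouse exceeded 0.625 of the range of its set, the 95% critical value of Dixon's test for 6 values. Chance marks about 1 set in 20. Sirt2 in Y397F-T10 was 63.1 FPKM in mouse 1, against 81.0 to 86.4 FPKM in the other mice. This library also had the lowest mean log2 level of the 6 oligodendrocyte markers of all 30 libraries, 6.42. Sirt2 in Y397D-T3 was 102 FPKM in mouse 1, against 74.9 to 83.5 FPKM in the others, in the library with the highest oligodendrocyte marker mean of its condition, 7.74. Sirt7 in Y397D-T3 was 21.8 FPKM in the same mouse, against 17.1 to 18.5 FPKM in the others. Of the 7 members, 5 had their highest Y397D-T3 value in this mouse (Sirt2, Sirt3, Sirt4, Sirt6 and Sirt7). Other conditions also held such mice. Mouse 1 of VEH-T10 was the lowest of its condition for 5 members, and mouse 3 of VEH-HC and mouse 1 of VEH-T3 for 4 each. Mouse 5 of VEH-T10 and mouse 5 of Y397F-T10 were the highest for 4 each. Sirt5 in VEH-T10 was 5.08 FPKM in mouse 6, against 6.46 to 7.08 FPKM in the others. No member was marked for a difference between the 2 plasmid effects.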

How the results depend on the processing

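The counts of members past the threshold were 0 in all 9 comparisons and stayed at 0 with a pseudocount of 0.1 and without the filter. For Y397D-T3 against VEH-HC 2 of 6 members passed with library medians subtracted (Sirt6 and Sirt7), 1 with only the libraries compared (Sirt6) and 1 with the replicate block (Sirt6). For all trained mice against VEH-HC 1 member (Sirt7) passed with library medians subtracted and 1 with the replicate block, and leaving out 1 library gave 0 or 1, with 1 without replicate 1 of VEH-T10, replicate 2 of Y397F-T10 or replicate 1 of VEH-T3. The cause of these changes was not tested. Without adjustment the counts were 2 for VEH-T10, 0 for Y397F-T10, 1 for VEH-T3, 2 for Y397D-T3 and 1 for all trained mice, each against VEH-HC, 1 for each plasmid against its vehicle, 0 for VEH-T10 against VEH-T3 and 2 for the interaction. The 2 of the interaction include Sirt4, whose trained values were part of what chose the family. The replicate numbers belong to different mice. Between conditions the correlation of same-numbered deviations ran from -0.496 to 0.840, with at most 3 of 6 pairs over 0.1, so the numbers were not taken as pairs, and the replicate block changed no other count of members. Of the list genes it ended the calls of Vdac2 in VEH-T3 (adjusted p = 0.0572, limma) and Y397D-T3 (0.0530). Over the whole table, subtracting library medians moved the share of calls that were higher from 38.9% to 71.7% for VEH-T10, 43.2% to 70.1% for VEH-T3, 41.6% to 71.4% for Y397F-T10, 55.3% to 73.6% for Y397D-T3 and from 509 of 1273 to 603 of 910 calls for all trained mice, each against VEH-HC. Of all rows 108 passed for VEH-T10, 46 with medians subtracted and 321 with only the libraries compared. For Y397F-T10 these were 149, 42 and 43, for VEH-T3 681, 341 and 0, and for Y397D-T3 932, 940 and 1845. Leaving out 1 library gave 17 to 223, 7 to 402, 155 to 1289 and 485 to 1125 in the same order, and 611 to 1554 for all trained mice (1273). With medians subtracted, with only the libraries compared and with the replicate block, the 6 rows for VEH-T10 against VEH-T3, 1 for Y397D-T3 against VEH-T3 and 4 for the interaction became 0.

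Of 63 log2 differences, 47 kept their sign under every alternative, among them all of Sirt4, of Sirt6 against VEH-HC in VEH-T10 and Y397D-T3 and of Sirt7 against VEH-HC. The other 16 did not, and none of the tested differences passed, whether or not they kept their sign. The Sirt4 differences from VEH-HC chose the family, so nothing is read from their sign. With library medians subtracted, the difference from VEH-HC in VEH-T10 became 0.0168 for Sirt2 and 0.0026 for Sirt3, that of Sirt6 in Y397F-T10 0.0200, that of Sirt1 in VEH-T3 0.0155, and that of Sirt1 in Y397F-T10 against VEH-T10 -0.0046. With a pseudocount of 0.1 the last was -0.000204. Leaving out 1 library gave ranges across 0. Against VEH-HC they ran, for VEH-T10, from -0.0782 to 0.0463 (Sirt2) and from -0.0779 to 0.0181 (Sirt5); for Y397F-T10, from -0.0339 to 0.0497 (Sirt5) and from -0.0482 to 0.0311 (Sirt6); and for VEH-T3, from -0.0410 to 0.0442 (Sirt1), from -0.132 to 0.0406 (Sirt2) and from -0.0185 to 0.0356 (Sirt6). Among trained mice they ran, for Y397F-T10 against VEH-T10, from -0.0488 to 0.0434 (Sirt1). For Y397D-T3 against VEH-T3 they ran from -0.116 to 0.0559 (Sirt2), from -0.0332 to 0.0326 (Sirt5) and from -0.0239 to 0.0539 (Sirt7). For VEH-T10 against VEH-T3 they ran from -0.0553 to 0.117 (Sirt2), from -0.0031 to 0.0874 (Sirt5) and from -0.0380 to 0.0731 (Sirt7). For Sirt1 in the interaction they ran from -0.0974 to 0.0012. With library medians subtracted the r of Sirt2 with the oligodendrocyte markers was 0.90.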
